A study of Mus musculus with 6 samples.

Results

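The clock output genes described here are Dbp, Tef, Hlf, Nfil3, Bhlhe40, Bhlhe41, Per3, Cry2, Klf10 and Wee1. They were chosen by name, and each matched exactly 1 row of the gene table, so the group holds 10 of the 19594 genes with counts. The study sequenced liver RNA of 3 SHP -/- mice and 3 wild-type mice, all males of C57BL6 background aged 2 months. SHP, the product of Nr0b2, is a nuclear receptor that lacks a DNA-binding domain and acts as a corepressor of other receptors. Capped RNA was selected with an EIF4E variant, and each sequencing lane carried 3 barcoded samples. The labels do not say which samples ran together, so genotype and lane cannot be told apart. How the SHP allele was made and the hour at which livers were collected are likewise not stated, so the phase at which these rhythmic genes were sampled is not known here.

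The circadian clock of the liver is a feedback loop in which CLOCK and BMAL1 activate genes through E-box motifs, among them those of the PER and CRY proteins that repress them. A second loop runs through the REV-ERB and ROR receptors. The clock reaches the rest of the transcriptome through output genes that are themselves regulators. DBP, TEF and HLF form the PAR bZIP family, activators rich in proline and acidic residues that bind D-box motifs and drive rhythmic detoxification genes in mouse liver. NFIL3 binds the same D-box and represses, while BHLHE40 and BHLHE41 repress at E-boxes. PER3 and CRY2 act within the repressor arm, KLF10 is a zinc finger factor under clock and growth factor control, and WEE1 is a kinase that holds back entry into mitosis. PER3, CRY2 and WEE1 are thus output or clock proteins and not DNA-binding transcription factors, although the group goes by that name.

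Library totals ran from 4494353 to 7225842 counts in SHP -/- liver and from 4982530 to 6155064 counts in wild type. Levels are given in CPM, counts scaled to a common library size, and differences as SHP -/- minus wild type on the log2 scale from limma voom, with Benjamini-Hochberg adjustment over the 11794 genes tested and a threshold of 0.05. Nr0b2 itself was at 6.60, 7.05 and 10.4 CPM in the SHP -/- libraries, against 17.7, 12.3 and 13.4 CPM in wild type (log2 difference −0.81 ± 0.25 SE, adjusted p = 0.0458). Its transcripts were thus lower but present in the libraries labelled as knockouts, and counts over a whole gene do not show whether the deleted part was read. That call was lost in 5 of the 6 fits without 1 library (adjusted p up to 0.132). With all 6 libraries it was also lost with no scaling, no filter on low counts and a replicate block (adjusted p = 0.0536, 0.0668 and 0.0609). Hepatocyte markers were abundant in every library, with Alb at or above 48065 CPM. Summed CPM of 10 stellate and matrix markers ran from 213.6 to 432.7 in SHP -/- libraries, lowest in library 1, against 396.9 to 441.3 in wild type. The 10 sinusoidal endothelial markers ran from 370.7 to 570.9 against 550.8 to 615.9, the 11 Kupffer cell and macrophage markers from 404.9 to 622.0 against 398.9 to 471.1, and the 11 lymphocyte and neutrophil markers did not exceed 6.27 in any library. The part of these cells in the results below was not tested. In bulk RNA, fewer cells of a type and less RNA per cell cannot be told apart.

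Of the 10 clock output genes, 1 passed the threshold. Hlf was lower in SHP -/- liver, at 50.5% of its wild-type level, and the other 9, including its close relatives Dbp and Tef, did not pass. All 10 were tested after the filter on low counts. Across all genes tested, 14.7% passed in either direction, 7.9% higher and 6.8% lower, so 1 of 10 clock output genes is not above this background. By unadjusted p under 0.05, 2 of the 10 differed, against 30.5% of all genes. The groups of 3 libraries did not overlap for 2 of them, Hlf and Cry2, against 35.0% of all genes. Estimates were positive for 5 and negative for 5, with a median log2 difference of 0.09, against 0.00 over all genes tested.

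**Figure D1:**
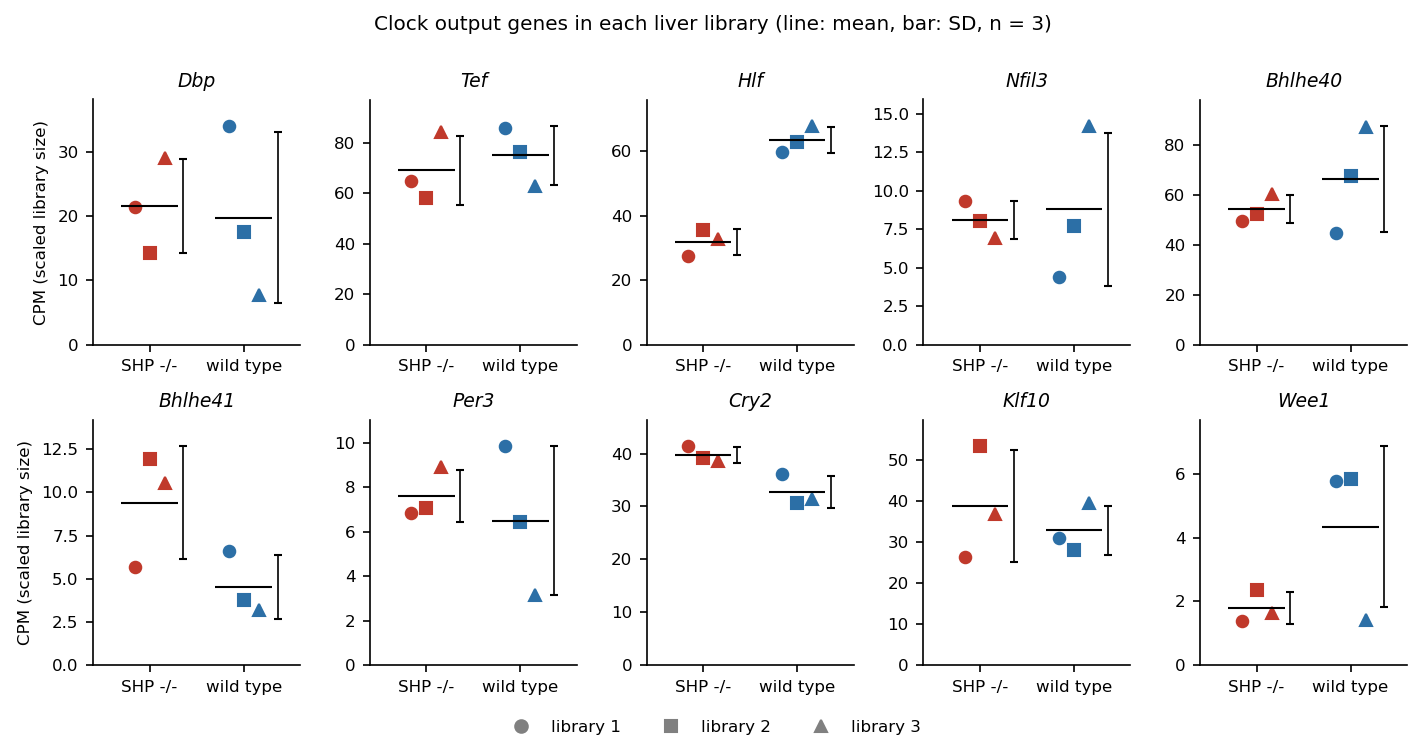
CPM of each clock output gene in every library, SHP -/- in red on the left and wild type in blue on the right of each panel, with the mean as a line and the SD as a bar (n = 3). The SHP -/- and wild-type libraries separate for Hlf and narrowly for Cry2, while Dbp, Per3, Nfil3 and Wee1 spread over more than 3-fold among the wild-type libraries alone.

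Hlf (ENSMUSG00000003949; mm9 chromosome 11, 90197849 to 90252231, minus strand) was the member that fell. It was at 27.6, 35.5 and 32.9 CPM in the SHP -/- libraries, against 59.9, 63.0 and 68.0 CPM in the wild-type libraries. The highest SHP -/- library lay far below the lowest wild-type library. The means were 32.0 ± 4.04 CPM in SHP -/- and 63.6 ± 4.07 CPM in wild type (SD, n = 3 each), resting on 121, 181 and 243 counts against 352, 302 and 430. The log2 difference was −0.99 ± 0.13 (SE; 95% interval −1.28 to −0.70; limma voom, adjusted p = 0.00058). Hlf passed in all 13 alternative fits, with log2 differences from −1.04 to −0.89 in the 6 fits without 1 library and a highest adjusted p of 0.00738, without wild-type library 3. Hlf overlaps AL626785.2, on the opposite strand, by 731 bases, and no counts of that gene were used here, so the part of its reads in the value of Hlf was not tested. The pooled-group log2 ratio of Hlf in the authors' deposited table was also −0.99. The share of all genes that passed was 13.7% with no scaling, 7.5% with no filter on low counts, 14.5% by limma trend, 14.7% with either other scaling or the replicate block, and 15.7% under robust variance moderation. It was 9.24%, 9.66% and 12.3% without SHP -/- library 1, 2 and 3, and 13.6%, 10.1% and 5.63% without wild-type library 1, 2 and 3.

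Tef (ENSMUSG00000022389; chromosome 15, 81632851 to 81657289, plus strand), the PAR bZIP gene with the most counts, was at 64.9, 58.0 and 84.2 CPM in SHP -/- liver, against 85.9, 76.3 and 62.7 CPM in wild type. The groups overlapped almost completely. The log2 difference was −0.11 ± 0.16 (95% interval −0.44 to 0.23, adjusted p = 0.688), an interval that does not reach the estimate for Hlf. Dbp (ENSMUSG00000059824; chromosome 7, 52960458 to 52965525, plus strand), the founding member of the family and a direct target of CLOCK and BMAL1, was at 21.4, 14.3 and 29.0 CPM in SHP -/- libraries, against 34.0, 17.5 and 7.74 CPM in wild type. The wild-type libraries alone spanned a 4.39-fold range, wider than the SHP -/- ones, and enclosed all 3 of those. The log2 difference of 0.39 ± 0.40 (95% interval −0.48 to 1.26, adjusted p = 0.558) leaves room for a change in either direction. It was 0.95 without wild-type library 1, but −0.21 when wild-type library 3 was left out. The end of Dbp overlaps that of Sphk2, on the opposite strand, by 689 bases, and Sphk2 itself rose to 74.3 ± 5.60 CPM in SHP -/- liver, against 46.8 ± 4.04 CPM in wild type (0.68 ± 0.12, adjusted p = 0.00331). Since it is not given whether counting used strand, the counts of Dbp are uncertain in their share from this neighbour.

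A ratio of 2 genes within a library does not depend on how libraries are scaled. Per kilobase of counted sequence, the ratio of Hlf to Tef was 0.306, 0.440 and 0.282 in SHP -/- libraries, against 0.502, 0.594 and 0.780 in wild-type libraries. The groups did not overlap, and the mean difference was −0.87 on the log2 scale (two-sided exact permutation p = 0.1, the smallest that 3 against 3 can give, and 0.333 adjusted over the 5 ratios computed). The ratio of Hlf to Dbp was 0.486, 0.937 and 0.429 in SHP -/- libraries, against 0.665, 1.36 and 3.32 in wild type, which overlap (exact permutation p = 0.2, adjusted 0.333). These ratios were chosen after the values had been seen. Of the summed level of Dbp, Tef and Hlf per kilobase, Hlf made up 14.5% to 23.0% in SHP -/- libraries and 22.2% to 38.7% in wild type. The sum itself was 26.9, 23.7 and 34.9 CPM per kilobase in SHP -/- libraries, against 41.5, 33.2 and 27.0 in wild type, and overlapped.

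The promoters of the PAR bZIP genes are shown because Hlf changed and its relatives did not pass, and that of Per3 because it holds the D-box itself. They come from RefSeq on build GRCm38.p6, cover 250 bases before and 50 bases from the annotated start, and were matched by symbol, which found 7 of the 10 genes (all but Bhlhe40, Klf10 and Wee1). Matches to the motifs searched are in capitals: the E-box CACGTG, the D-box TTANGTAA, the ROR and REV-ERB element TAGGTCA, the cAMP response element TGACGTCA and the site of LRH-1, a nuclear receptor that SHP represses, TCAAGGTCA, each on both strands.
Hlf, chr11:90390868-90391167, minus strand: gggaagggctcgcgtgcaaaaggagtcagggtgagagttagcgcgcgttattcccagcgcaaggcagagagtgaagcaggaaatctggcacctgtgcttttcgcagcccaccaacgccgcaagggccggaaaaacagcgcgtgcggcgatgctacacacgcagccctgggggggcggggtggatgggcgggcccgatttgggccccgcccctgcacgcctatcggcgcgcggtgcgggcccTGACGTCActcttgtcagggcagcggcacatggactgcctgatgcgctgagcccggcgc
Dbp, chr7:45704997-45705296, plus strand: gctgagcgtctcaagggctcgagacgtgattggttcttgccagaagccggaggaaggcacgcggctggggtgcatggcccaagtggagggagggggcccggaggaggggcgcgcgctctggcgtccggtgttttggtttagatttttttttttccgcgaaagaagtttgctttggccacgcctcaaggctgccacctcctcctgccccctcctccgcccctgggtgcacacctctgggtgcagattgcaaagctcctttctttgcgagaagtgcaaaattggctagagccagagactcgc
Tef, upstream start, chr15:81802423-81802722, plus strand: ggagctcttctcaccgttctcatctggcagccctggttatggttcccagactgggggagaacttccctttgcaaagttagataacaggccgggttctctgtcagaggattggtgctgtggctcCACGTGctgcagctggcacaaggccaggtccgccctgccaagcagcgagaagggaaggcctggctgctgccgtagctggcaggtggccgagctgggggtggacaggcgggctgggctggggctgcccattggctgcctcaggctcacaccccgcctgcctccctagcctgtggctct
Tef, downstream start, chr15:81811164-81811463, plus strand: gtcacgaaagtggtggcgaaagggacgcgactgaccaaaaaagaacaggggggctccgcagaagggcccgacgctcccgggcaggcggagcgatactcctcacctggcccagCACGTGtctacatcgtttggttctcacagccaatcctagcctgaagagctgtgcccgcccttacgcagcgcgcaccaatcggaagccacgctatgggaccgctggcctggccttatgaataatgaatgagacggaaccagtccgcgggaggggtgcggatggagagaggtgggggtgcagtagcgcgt
Per3, chr4:151044616-151044915, minus strand: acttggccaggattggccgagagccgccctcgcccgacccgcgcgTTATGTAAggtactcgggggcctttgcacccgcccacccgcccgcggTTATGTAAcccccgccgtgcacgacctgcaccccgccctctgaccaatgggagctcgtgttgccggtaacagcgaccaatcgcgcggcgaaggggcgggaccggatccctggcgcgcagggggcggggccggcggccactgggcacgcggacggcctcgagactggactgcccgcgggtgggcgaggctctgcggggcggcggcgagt
The Hlf window held 1 TGACGTCA just before the start, found in 1.79% of all 32851 promoters of this length, and no other motif of the 5. Each Tef window held 1 CACGTG (7.15% of all promoters), and the Dbp window none of the 5. Per3 held 2 copies of the D-box (2.32% of all promoters hold at least 1). Of those not printed, Bhlhe41 held 1 CACGTG, Nfil3 held 1 TAGGTCA (2.61% of all promoters) and Cry2 held none. The LRH-1 motif (0.423% of all promoters) was in none of the 8 windows. A match describes letters in the window and does not show that a factor binds there, and the windows leave out enhancers and introns.

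**Figure D2:**
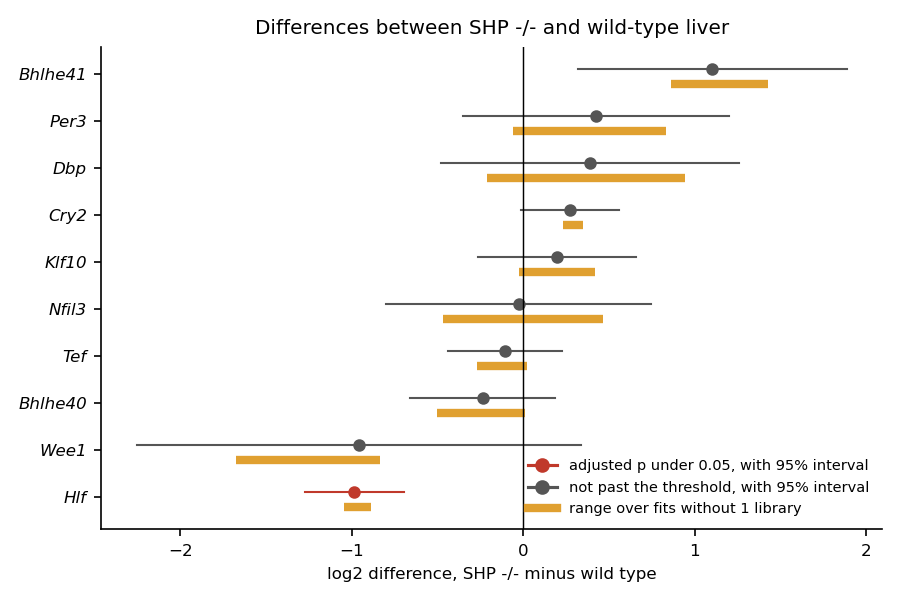
Log2 difference of each clock output gene, SHP -/- minus wild type (horizontal axis), with its 95% interval from limma voom and, as an orange bar, the range over the 6 fits that each leave out 1 library (3 fits for Wee1). Hlf alone passed the threshold, at −0.99, and its orange bar runs from −1.04 to −0.89, while the bars of Dbp, Per3, Nfil3, Tef, Bhlhe40 and Klf10 cross 0.

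Nfil3 (ENSMUSG00000056749; chromosome 13, 53062578 to 53076442, minus strand), the repressor that competes with the PAR bZIP factors at the D-box, was at 9.34, 8.03 and 6.91 CPM in SHP -/- libraries, against 4.42, 7.71 and 14.2 CPM in wild type. The SHP -/- libraries fell within the wild-type range. Its log2 difference was −0.03 ± 0.36 (95% interval −0.80 to 0.75, adjusted p = 0.970). Its sign hung on single libraries, at −0.47 without wild-type library 1, but 0.47 when wild-type library 3 was left out.

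The paralogous E-box repressors had estimates of opposite sign. Bhlhe41 (ENSMUSG00000030256; chromosome 6, 145806763 to 145814078, minus strand) was at 5.69, 12.0 and 10.6 CPM in SHP -/- libraries, against 6.63, 3.75 and 3.16 CPM in wild type. Libraries 2 and 3 of SHP -/- lay above every wild-type library, and library 1 did not. Its log2 difference of 1.10 ± 0.36 (95% interval 0.32 to 1.89) missed the threshold at an adjusted p of 0.0579. It passed under robust variance moderation (adjusted p = 0.0417, where 15.7% of all genes passed), without SHP -/- library 1 (0.0187, with 9.24% of all genes) and without wild-type library 1 (0.0475, with 13.6%). The authors' deposited table gives Bhlhe41 a log2 ratio of 1.03 and an adjusted score of 17.8, which reads as an adjusted p of 0.0166 on a scale where 7.83% of measured genes passed. Bhlhe40 (ENSMUSG00000030103; chromosome 6, 108610623 to 108616919, plus strand) was at 49.6, 52.5 and 60.4 CPM in SHP -/- libraries, against 44.7, 67.8 and 87.1 CPM in wild type. The groups overlapped, and the log2 difference was −0.24 ± 0.20 (adjusted p = 0.452). Without wild-type library 1 it was −0.50 and passed (adjusted p = 0.0433), and without wild-type library 3 it was 0.01. The ratio of Bhlhe41 to Bhlhe40 per kilobase was 0.0548, 0.109 and 0.0836 in SHP -/- libraries, against 0.0709, 0.0265 and 0.0174 in wild type, and overlapped (exact permutation p = 0.2, adjusted 0.333).

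Among the clock proteins of the group, Cry2 (ENSMUSG00000068742; chromosome 2, 92243803 to 92274200, minus strand) was at 41.4, 39.2 and 38.6 CPM in SHP -/- libraries, against 36.2, 30.6 and 31.4 CPM in wild type. Every SHP -/- library lay above every wild-type one by a small margin. The difference of 0.27 ± 0.13 (95% interval −0.01 to 0.56, adjusted p = 0.186) did not pass in any of the 13 alternatives. Cry2 overlaps AL683814.1, on the opposite strand, by 23417 bases, a gene with 17 counts in SHP -/- and 25 in wild type over 3 libraries each. Per3 (ENSMUSG00000028957; chromosome 4, 150377761 to 150418774, minus strand) was at 6.83, 7.05 and 8.94 CPM in SHP -/- libraries, against 9.87, 6.46 and 3.16 CPM in wild type. As with Dbp, the wild-type libraries enclosed the SHP -/- ones, and the log2 difference was 0.42 ± 0.36 (adjusted p = 0.464), which was −0.06 without wild-type library 3, but 0.83 when wild-type library 1 was left out.

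Klf10 (ENSMUSG00000037465; chromosome 15, 38224171 to 38230461, minus strand) was at 26.4, 53.5 and 36.9 CPM in SHP -/- libraries, against 31.0, 28.1 and 39.5 CPM in wild type. SHP -/- library 2 stood highest, and the log2 difference of 0.20 ± 0.21 (adjusted p = 0.572) was −0.02 without it. That library also had the highest summed level of 12 immediate early genes, which answer stress and growth signals within minutes, 1844 CPM, against 531 and 342 CPM in the other SHP -/- libraries and 211, 210 and 421 CPM in wild type. Of the 10 immediate early genes tested, 3 rose and 0 fell by limma voom, against 7.9% and 6.8% of all genes tested. Their median log2 difference was 1.10, and 5 had an unadjusted p below 0.05 by limma voom, against 30.5% of all genes tested. By limma trend 4 were higher and 0 lower. In fits without 1 library, 0 were higher without wild-type library 1 or 2 and 8 without SHP -/- library 3. The part of this response in the value of Klf10 was not tested. Wee1 (ENSMUSG00000031016; chromosome 7, 117265570 to 117286798, plus strand) was near the limit of detection, with 6, 12 and 12 counts in SHP -/- libraries, against 34, 28 and 9 counts in wild type. These are 1.37, 2.35 and 1.63 CPM against 5.78, 5.84 and 1.42 CPM, so wild-type library 3 was as low as the SHP -/- libraries. The log2 difference was −0.96 ± 0.60 (95% interval −2.25 to 0.34, adjusted p = 0.307). Only 3 libraries reached the filter of 1.83 CPM, and Wee1 was not tested without SHP -/- library 2 or wild-type library 1 or 2. Without wild-type library 3 the difference was −1.68 and passed (adjusted p = 0.0412, where 5.63% of all genes passed).

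Wild-type libraries differed among themselves more than SHP -/- libraries for 6 of the 10 genes by the SD of log2 CPM, against 51.6% of all genes tested. The SD in wild type was 1.06 for Dbp, 1.14 for Wee1, 0.83 for Nfil3 and 0.82 for Per3, against a median of 0.21 over all genes tested. Of all tested genes, 1.45% varied more than Dbp among the wild-type libraries, 1.19% more than Wee1, 3.28% more than Nfil3 and 3.48% more than Per3. In SHP -/- libraries the SD was 0.51 for Dbp, 0.38 for Wee1, 0.22 for Nfil3 and 0.21 for Per3, against a median of 0.21. Of all tested genes, 14.0% varied more than Dbp and 24.0% more than Wee1 there. These genes were named for their large wild-type SD, so a smaller SD in SHP -/- follows in part from the choice. The SD was larger in SHP -/- for Klf10 (0.51, against 0.25 in wild type), Tef (0.27 against 0.23) and, barely, Bhlhe41 (0.56 against 0.55). Counting error alone gives an SD of 0.16 for Dbp and 0.35 for Wee1 in wild type, somewhat more where both mates of a read pair were counted. The SDs of Hlf were 0.19 in SHP -/-, where 54.9% of tested genes varied more, and 0.09 in wild type, where 85.6% did. Whether the spread of any gene differed between the groups was not tested with 3 libraries each.

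Several of the genes were high or low in the same libraries. Within wild type, library 1 had the most Dbp, Tef, Per3, Bhlhe41 and Cry2 and the least Nfil3, Bhlhe40 and Hlf. Wild-type library 3 was the lowest for Dbp, Tef, Per3, Bhlhe41 and Wee1 and the highest for Nfil3, Bhlhe40, Hlf and Klf10. Among SHP -/- libraries, library 3 was the highest for Dbp, Tef and Per3 and the lowest for Nfil3. In both groups, then, the library with most Dbp also had most Tef and Per3 and least Nfil3, and the ratio of Dbp to Nfil3 per kilobase was 1.89, 1.47 and 3.46 in SHP -/- libraries, against 6.35, 1.87 and 0.450 in wild type. In core clock genes, wild-type library 1 was the lowest wild-type library for Arntl, which encodes BMAL1 (9.19 CPM, against 13.8 and 14.9), and the highest for Per2 (12.2 CPM, against 10.4 and 6.80). SHP -/- library 3, which had most Dbp in its group, went the other way, with the highest Arntl (18.2 CPM, against 12.8 and 14.1) and the lowest Per2 (13.1 CPM, against 13.7 and 17.0), and it also had most Bhlhe40. The pattern among Dbp, Tef, Per3 and Nfil3 thus did not extend to these genes in both groups, and it was noticed after the values had been seen.

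**Figure D3:**
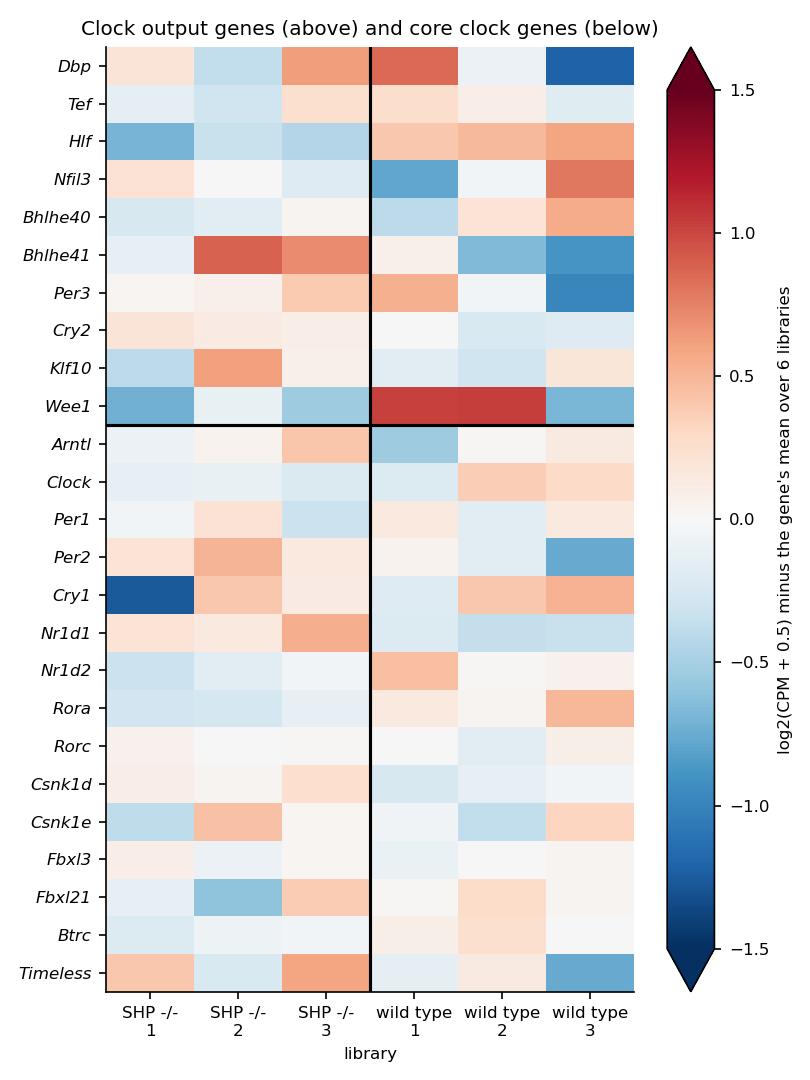
Level of each clock output gene (above the line) and tested core clock gene (below it) in every library, SHP -/- on the left and wild type on the right, as log2(CPM + 0.5) minus the mean of that gene over the 6 libraries. Hlf is lower in all 3 SHP -/- libraries, while Dbp and Per3 are high in wild-type library 1 and low in wild-type library 3, and Nfil3 is the reverse.

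Compared per kilobase of counted sequence, Bhlhe40 was the most abundant of the 10 in both groups, at 18.1 ± 1.87 CPM per kilobase in SHP -/- and 22.2 ± 7.08 in wild type (SD, n = 3 each). Tef followed at 14.8 ± 2.90 and 16.0 ± 2.49, and Klf10 at 12.8 ± 4.49 and 10.8 ± 1.95. In SHP -/- liver the order went on with Dbp, Cry2, Hlf, Nfil3, Bhlhe41, Per3 and Wee1 (0.523 CPM per kilobase). In wild type it went on with Hlf, Dbp, Cry2, Nfil3, Wee1, Bhlhe41 and Per3 (0.676 CPM per kilobase). Hlf thus stood below Cry2 in SHP -/- liver, at 4.93 ± 0.622 against 6.60 ± 0.248 with no overlap of libraries, and above it in wild type, at 9.79 ± 0.627 against 5.44 ± 0.502. Neighbours in these orders overlapped between libraries, except Cry2 over Hlf, Nfil3 over Bhlhe41 and Per3 over Wee1 in SHP -/- liver, and Tef over Klf10 and Nfil3 over Wee1 in wild type.

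Over the 6 libraries, the genes whose centred log2 CPM lay closest to those of Hlf were Slco1a1, an organic anion uptake transporter (root mean square distance 0.05), 2200002D01Rik (0.07) and Gas2 (0.08), of 9528 genes with a mean of at least 5 CPM. Slco1a1 was at 322, 396 and 375 CPM in SHP -/- libraries, against 637, 678 and 781 CPM in wild type, a log2 difference of −0.94 ± 0.11. These genes were picked for their likeness to Hlf in the same libraries, so a difference near that of Hlf follows from the choice.

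Of the core clock genes around the group, 17 were measured and 15 tested. With all 6 libraries 1 rose, 1 fell and 13 did not pass, with a median log2 difference of 0.03. Over all genes tested 7.9% rose and 6.8% fell, so the core clock calls are not above this background. Nr1d1, which encodes the repressor REV-ERB alpha, rose, at 72.0, 68.6 and 91.2 CPM in SHP -/- libraries, against 53.8, 48.4 and 49.0 CPM in wild type (0.62 ± 0.13, adjusted p = 0.00901). Rora, the activating receptor that shares its binding element, fell, at 126, 127 and 140 CPM in SHP -/- libraries, against 169, 157 and 215 CPM in wild type (−0.45 ± 0.12, adjusted p = 0.0284). Neither pair of groups overlapped, which held for 6 of the 15 tested core clock genes and for 35.0% of all genes tested. Neither call held without wild-type library 3 (Nr1d1 0.61, adjusted p = 0.0515, and Rora −0.30, adjusted p = 0.147), and that of Rora also without SHP -/- library 1 or 2 (adjusted p = 0.0906 and 0.0867). Clock, Arntl, Per1, Per2, Cry1 and Nr1d2 had log2 differences of −0.30, 0.31, −0.12, 0.61, −0.43 and −0.35 and did not pass. Clock passed without wild-type library 1 (−0.48, adjusted p = 0.0195).

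Of 12 other clock-controlled liver genes, all tested, 0 rose and 2 fell, against 7.9% and 6.8% of all genes tested. By limma voom 4 of the 12 had an unadjusted p below 0.05, against 30.5% of all genes. There was no call towards higher by limma trend. Ccrn4l, which encodes the rhythmic factor nocturnin, was at 28.5, 18.2 and 11.0 CPM in SHP -/- libraries, against 30.6, 47.9 and 42.0 CPM in wild type (−1.23 ± 0.27, adjusted p = 0.00901). Gys2, liver glycogen synthase, was at 152, 131 and 163 CPM in SHP -/- libraries, against 245, 192 and 220 CPM in wild type (−0.56 ± 0.12, adjusted p = 0.00885). Neither passed without wild-type library 3 (adjusted p = 0.0554 and 0.0523), and the difference of Ccrn4l was −0.80 without SHP -/- library 3. Elovl3 and Tsc22d3 had log2 differences of −0.07 ± 0.17 and −0.47 ± 0.19 and did not pass. Tsc22d3 passed without SHP -/- library 1 (−0.66, adjusted p = 0.0354) and without wild-type library 1 (−0.68, adjusted p = 0.0283).

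Genes known in mouse liver as targets of the PAR bZIP factors moved in both directions. Of 6 tested, 3 rose, 2 fell and 1 did not pass, with a median log2 difference of −0.06. Over all genes tested, 7.9% rose and 6.8% fell. Cyp2a5, a coumarin hydroxylase with a near-identical neighbour, Cyp2a4, which makes its value uncertain, was at 122, 106 and 109 CPM in SHP -/- libraries, against 381, 299 and 205 CPM in wild type (−1.35 ± 0.18, adjusted p = 0.000464). Nr1i3, the xenobiotic receptor CAR, was at 76.1, 63.3 and 109 CPM, against 151, 142 and 138 CPM in wild type (−0.81 ± 0.16). Alas1, which sets the rate of heme synthesis, was at 554, 435 and 351 CPM in SHP -/- libraries, against 348, 186 and 135 CPM in wild type (1.09 ± 0.26, adjusted p = 0.013), but missed the threshold with robust moderation (adjusted p = 0.177) and without wild-type library 2 or 3 (0.054 and 0.0814). Por, the electron donor of cytochromes P450, named here after its values were seen, was at 473, 440 and 383 CPM, against 307, 262 and 229 CPM in wild type (0.70 ± 0.12, adjusted p = 0.00277). Cyp7a1, the rate-limiting enzyme of bile acid synthesis, had the largest difference of the 6, 2.13 ± 0.20. The part of the PAR bZIP factors in this and the other differences of the list was not tested. Cyp2b10 was at 1.47 ± 0.687 CPM in SHP -/- and 3.48 ± 1.53 CPM in wild type and did not pass (−1.19 ± 0.54, adjusted p = 0.152).

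Of 17 other tested bZIP factors, 6 rose and none fell, with a median log2 difference of 0.72. Across all genes tested, 7.9% rose and 6.8% fell. By limma voom 8 had an unadjusted p below 0.05, against 30.5% of all genes tested. Limma trend also called none of the bZIP factors lower. Jun, Junb, Fos and Atf3 were also among the immediate early genes above. Cebpa and Cebpb, which encode liver-enriched C/EBP activators, were at 486 ± 18.4 and 91.0 ± 17.6 CPM in SHP -/- and 239 ± 25.7 and 42.0 ± 6.89 CPM in wild type (1.03 ± 0.11 and 1.09 ± 0.16, adjusted p = 8.93e-05 and 0.000909). Xbp1, of the unfolded protein response, rose by 0.91 ± 0.18 on the log2 scale. Junb, of the AP-1 family, rose to 51.5, 156 and 29.3 CPM in SHP -/- libraries, against 15.3, 15.2 and 12.8 CPM in wild type (adjusted p = 0.0235). Its call was lost under robust moderation (adjusted p = 0.243) and without wild-type library 1, 2 or 3 (0.0638, 0.0771 and 0.130). The call held without SHP -/- library 2, at a log2 difference of 1.39 (adjusted p = 0.00313). Atf5 and Jund, named after their values were seen, also rose. Creb3l3 and Atf4 had 0.04 ± 0.11 and 0.42 ± 0.15 and did not pass. Atf4 passed with the replicate block (0.42, adjusted p = 0.0431) and without SHP -/- library 3 (0.58, adjusted p = 0.0181). Junb, and after their values were seen also Jun, Fos, Fosb and Atf3, were found highest in SHP -/- library 2. That library had the high immediate early level. Cebpb, Xbp1 and Jund were also highest there, and Cebpa by a small margin (507 CPM, against 477 and 474 in the other SHP -/- libraries). Atf5 was highest in SHP -/- library 1. The number of bZIP factors that rose was 12 without SHP -/- library 3. Of 11 other KLF factors tested beside Klf10, 0 rose and 1 fell, against 7.9% and 6.8% of all genes tested. By limma voom 5 of the 11 had an unadjusted p below 0.05, against 30.5% of all genes. By limma trend 0 were higher. Klf11, the closest relative of Klf10, was the gene that fell, to 15.5 ± 1.01 CPM in SHP -/- liver, against 25.4 ± 3.30 CPM in wild type (−0.73 ± 0.17, adjusted p = 0.0142). Its call was lost without SHP -/- library 3 or wild-type library 3 (adjusted p = 0.0602 and 0.0802). Klf15 and Klf9 did not pass. Around Wee1, 5 of 13 measured genes of G2/M and cell division were abundant enough to test. By limma voom 0 of the 5 passed, with 0 at an unadjusted p under 0.05, and 0 passed by limma trend. Mki67 and Cdc25a had log2 differences of −0.74 ± 0.38 and −0.82 ± 0.45.

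**Figure D4:**
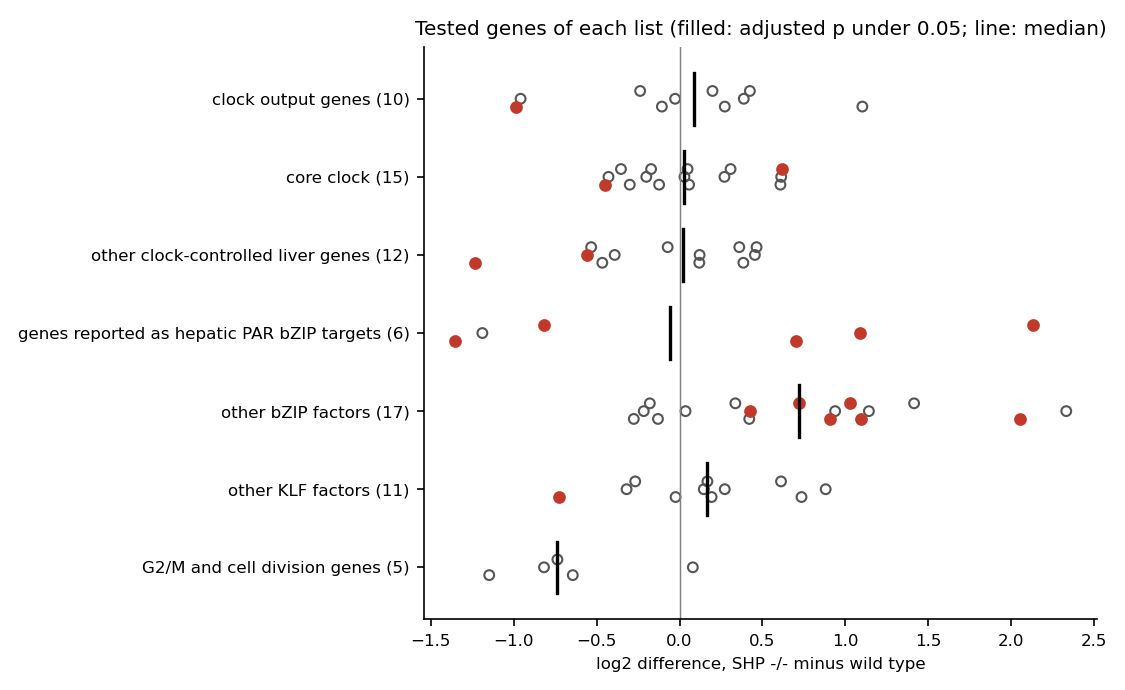
Log2 difference, SHP -/- minus wild type (horizontal axis), of every tested gene in the lists shown, with the number tested in parentheses, filled red where the adjusted p was under 0.05 and with the list median as a black line. The clock output genes centre near 0 with Hlf as the only filled point, while PAR bZIP targets lie on both sides of 0 and the other bZIP factors have a median of 0.72.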

How the data were processed

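Capped liver RNA of 3 SHP -/- and 3 wild-type mice was sequenced as paired ends of 36 cycles, per the labels' protocols. The aligner was Novoalign 2.05.33 and the genome build mm9, both per the submitters' processing notes. How reads were assigned to genes and strands, and from which annotation, is not stated. The authors deposited whole-number read counts per gene and library, RPKM and a log2 ratio for each pooled group, and p scores with their adjusted scores, per the file headers. Treating the scores as log10 of p, negated and multiplied by 10, Benjamini-Hochberg adjustment of the first column gave the second. The table lists 33495 genes. Of these, 13901 have empty cells and were left out, including 4840 whose lines stop early. The counts therefore carry a general unit here, and limma voom was used where a count model had been planned.

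Genes entered the test when 3 libraries reached 1.83 CPM, equal to 10 counts in a library of median size, and when their total was at least 15. Own code computed scaling factors from trimmed means of M values (0.963 to 1.03, trims of 0.3 and 0.05). The model in limma 3.58.1 (R 4.3.3) held genotype alone, with an offset of 0.5 counts, and the script was tested on simulated data. Alternatives were no scaling, median-of-ratios scaling, scaling without mitochondrially encoded genes, no filter, limma trend, robust variance moderation, a replicate block, and leaving out each library. Of counts between 1 and 19, 61.8% were even, so both mates were often counted and counting errors are understated. Libraries of a group differed by 5.22 to 9.10 times counting noise (chi-square per degree of freedom), so none was a copy. Whether mice shared litters is not stated, so p-values measure only the spread between these samples. Start coordinates were raised by 1 to count from 1. The clock output genes and all lists were chosen with earlier results of these data known. All 10 clock output genes are named. From each list the rule names up to 4 passing genes with the largest differences and 2 others with the highest CPM, and any core clock gene.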

Additional observations from a re-analysis of the deposited data

How the results depend on the processing

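Hlf kept its direction and its call in all 13 alternatives. Without 1 library, genes past the threshold numbered 647 to 1560 (387 to 827 higher and 260 to 766 lower), lowest without wild-type library 3, against 1734 (932 and 802) with all 6. Clock output genes that rose numbered 0 to 1 and those that fell 1 to 2. Across the same fits, core clock genes ranged from 0 to 1 higher and 0 to 2 lower, other clock-controlled genes from 0 to 1 and 0 to 3, PAR bZIP targets from 2 to 3 and 2 to 2, other bZIP factors from 5 to 12 higher, other KLF factors from 0 to 1 and 0 to 2, and immediate early genes from 0 to 8 higher, against 3 with all 6. Under robust variance moderation 1 clock output gene rose, Bhlhe41, and 0 immediate early genes. With no low-count filter 1 other KLF factor rose. The replicate block gave 1736 calls and 5 higher immediate early genes. Deviations of same-numbered libraries from their group means had correlations of −0.02, −0.02 and −0.02. Such values over all genes cannot show whether the numbers mark a shared litter or lane, which the labels do not state. The causes of these shifts were not tested. Mitochondrially encoded genes took 6.50% ± 0.753 of counts in SHP -/- and 10.2% ± 0.0616 in wild type (exact permutation p = 0.1, the smallest possible); scaling without them left Hlf at −0.99. Over 645 alternative values of 50 genes, 0 called values changed sign, 32 calls were lost and 13 gained. Of marker lists with all 6 libraries, hepatocyte genes had 2 higher and 1 lower, macrophage 3 and 0, endothelial 1 and 0, and stellate 0 and 1. Cholangiocyte, lymphocyte and erythroid lists had 0. Without 1 library, hepatocyte genes ranged from 0 to 1 higher and 0 to 0 lower, and macrophage from 0 to 3 and 0 to 0. Endothelial genes ranged from 0 to 1 and 0 to 2, stellate from 0 to 2 and 0 to 2, and erythroid from 0 to 2 and 0 to 0. Wee1, Bhlhe41, Per3 and Nfil3 rest on few counts. Among the clock output genes, only the 95% intervals of Hlf and Bhlhe41 exclude 0.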
